A study of Mus musculus with 5 samples.

Results

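The hexosamine pathway was followed through 5 genes, Gfpt1, Gnpnat1, Pgm3, Uap1 and Ogt, in a map of RNA polymerase II (Pol II) over the genome of splenic regulatory T (Treg) cells with and without Setd2. The genes were chosen by measured values of this same contrast. A peak inside an intron of Gfpt1 had the strongest gain in Setd2-deficient cells by DESeq2 p-value, though not the largest fold change. Every difference between genotypes given here for the 5 genes is therefore a description, and none is a test of the choice. A peak was given to a gene when its midpoint lay in the gene body or within 3 kb upstream. By that rule the 5 genes, of 13542 with a peak, held 13 of the 56615 peaks of the series. The question was whether the other Gfpt1 peaks moved with the intronic one, and whether the rest of the pathway did.

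The hexosamine pathway turns a small part of the sugar that enters glycolysis into UDP-GlcNAc, the donor of N-acetylglucosamine. It starts from fructose 6-phosphate and glutamine, so it is known as a sensor of nutrient supply. UDP-GlcNAc feeds the branching of N-glycans at the cell surface and the O-GlcNAc mark on nuclear and cytoplasmic proteins, both of which are known to matter in activated T cells and in Treg cells. Setd2 is the methyltransferase that places H3K36me3 over the bodies of transcribed genes.

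The Ctrl mice were Foxp3 Cre-YFP Setd2 f/+ and the KO mice Foxp3 Cre-YFP Setd2 f/f, both C57BL/6, 8 weeks old and of both sexes pooled. The Cre was driven by Foxp3, the lineage factor of Treg cells, so the controls carried the same Cre and 1 floxed Setd2 allele. All mice had received a complex of 1 µg IL-2 and 5 µg anti-IL-2 antibody for 3 days, which expands Treg cells in vivo, and were killed 48 h after the last dose. CD3+CD4+Foxp3-YFP+ cells were pooled from the spleens of 2 mice, and 80000 nuclei went into a library of CUT&Tag, in which an antibody tethers a transposase to the chromatin around its target. Each group had 2 libraries. The study's methods name littermate mice and treat the nuclei of a library as a biological replicate, but do not say whether both libraries of a genotype came from different mice, so part of the spread between them may be technical.

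The 4 libraries held 4489646 to 13351007 reads in peaks, a 2.97-fold range, and the deepest and the shallowest were both KO. Values below are counts divided by DESeq2 size factors, called normalised counts. Peaks were found over all 6 Treg and T cell marker genes examined, which summed to 26640 to 31290 normalised counts in Ctrl and 28250 to 32200 in KO, with Foxp3 at 1646 to 1887. Of 10 markers of other spleen cells, 9 had no peak, among them Ms4a1, Cd8a and Itgam. The exception was the B cell gene Cd79a, which stood at 86.4, 82.1, 67.3 and 122.9 in Ctrl 1, Ctrl 2, KO 1 and KO 2. Its part in the values below was not tested. The 9 peaks of Setd2 summed to 512.7, 517.5, 455.3 and 569.5 in the same order, and the groups overlapped. Floxed deletion need not lower Pol II over the rest of the gene, so this sum does not check the labels. In such bulk libraries, Pol II lost or gained in each cell and a change in the share of cells that carry it cannot be told apart, and CUT&Tag reads carry no strand.

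Gfpt1 encodes glutamine-fructose-6-phosphate transaminase 1, the rate-limiting entry enzyme of the pathway. It lies on the plus strand of chr6:87042846-87092197 (GRCm38). The midpoint rule gave its 3 peaks to no other protein-coding gene, and overlap with other gene types was not examined. One peak, chr6:87040129-87041604, was centred 1980 bases upstream of the start. Another, chr6:87042018-87043582, covered the start and is called the promoter peak. The intronic peak, chr6:87068902-87069820, spanned 919 bases, 26.5 kb into the gene. It lay in the 5602-base intron between exons 11 and 12 of the 19 exons of transcript Gfpt1-204, 1122 bases past exon 11. The intronic peak touched no annotated Gfpt1 exon and was 7.45 kb from the nearest internal start site.

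The central 300 bases of the intronic peak and the RefSeq promoter window of Gfpt1, from 250 bases before to 50 after the start, are printed because the first is the stretch whose signal chose these genes and the other is the start it was compared with. Both are written 5′ to 3′ on the plus strand, the intronic one from GRCm38 and the promoter from RefSeq for GRCm38.p6. Capitals mark matches, on either strand, to the letters searched in that window. In the intron the letters searched for RUNX were TGTGGTT. Those for AP-1 were TGANTCA. Those for FOX factors were TGTTTAC. In the promoter the GC box was read as GGGCGG. The CCAAT box was searched by its own 5 letters. The RUNX, AP-1 and FOX letters were not searched in the promoter, so a lower-case stretch there does not mean their absence. The promoter does hold the FOX letters, as gtaaaca in lower case, so these letters do not set the intronic peak apart from it.
Gfpt1 intronic peak, centre, chr6:87069212-87069511: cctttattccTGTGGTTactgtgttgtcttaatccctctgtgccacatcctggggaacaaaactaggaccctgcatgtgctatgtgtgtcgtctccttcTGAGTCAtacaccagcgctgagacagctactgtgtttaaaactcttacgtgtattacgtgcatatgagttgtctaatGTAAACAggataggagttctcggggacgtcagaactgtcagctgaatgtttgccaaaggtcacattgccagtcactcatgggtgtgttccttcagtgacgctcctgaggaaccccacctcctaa
Gfpt1 promoter, chr6:87042596-87042895: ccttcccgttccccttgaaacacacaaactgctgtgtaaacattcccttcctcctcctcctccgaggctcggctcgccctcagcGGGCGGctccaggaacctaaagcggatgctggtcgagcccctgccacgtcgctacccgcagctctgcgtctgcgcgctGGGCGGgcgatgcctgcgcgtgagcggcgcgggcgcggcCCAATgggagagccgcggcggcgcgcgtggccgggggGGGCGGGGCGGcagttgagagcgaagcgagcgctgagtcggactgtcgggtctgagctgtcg

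The intronic centre had 47.7% G and C, 7 CpG and no repeat-masked base. It held 1 match each to the RUNX, AP-1 and FOX letters. None was found to the STAT letters TTCNNNGAA. Nor was one found to the ETS letters CCGGAAG. Among the same 300-base centres of 19766 intronic peaks farther than 3 kb from a start, 8.37% held the RUNX letters, 10.3% the AP-1 letters, 4.01% the FOX letters, 7.68% the STAT letters and 1.52% the ETS letters. Each match is a string of letters and not a measured binding site. The promoter was unlike it in base composition, with 70.3% G and C and 38 CpG, against a median of 52.7% G and C over 32851 promoters. It held 4 GC boxes, of which the last pair overlaps by 1 base, and 1 CCAAT box, motifs present in 35.7% and 37.4% of all promoters.

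The intronic Gfpt1 peak, the one used for the choice, was low in Ctrl and well filled in KO. In the order Ctrl 1, Ctrl 2, KO 1 and KO 2 it held 33.8, 27.6, 133.7 and 88.6 normalised counts, from 47, 20, 225 and 52 reads. Both KO libraries, the deepest and the shallowest of the series, stood above both Ctrl libraries. The Ctrl mean was 30.7 ± 4.40 (SD, n = 2) and the KO mean 111.1 ± 31.9 (SD, n = 2), which is 3.62 times as much. The log2 fold change was 1.86 ± 0.43 (SE). Over the 4 ways to set a KO library against a Ctrl library, the log2 ratio ran from 1.39 to 2.28. It ranked first by DESeq2 p-value among the 27661 peaks higher in KO, and 6 of 55405 peaks with a mean of at least 20 normalised counts had a larger log2 fold change.

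Close behind it in that ranking came a peak shared by Sla, an adaptor that dampens T cell receptor signalling, and Tg, at chr15:66786512-66788169. It held 229.3 and 208.0 normalised counts in the Ctrl pair and 380.8 and 476.9 in the KO pair. Its log2 fold change was 0.96 ± 0.24, so the Gfpt1 peak had the larger fold change but the fewer reads.

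The other Gfpt1 peaks did not show a gain of that size. The upstream peak held 169.6 and 183.2 normalised counts in Ctrl and 196.1 and 206.1 in KO. The KO libraries were above both Ctrl libraries, by a narrow margin, with a log2 fold change of 0.19 ± 0.27. The promoter peak held 456.4 and 486.4 in the Ctrl pair and 448.0 and 395.1 in the KO pair. Here each KO library was below each Ctrl library, with a log2 fold change of -0.15 ± 0.22. Thus the 2 peaks around the start differed in opposite directions, each by less than its standard error, while the intronic peak stood at 1.86 on the same scale.

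**Figure D1:**
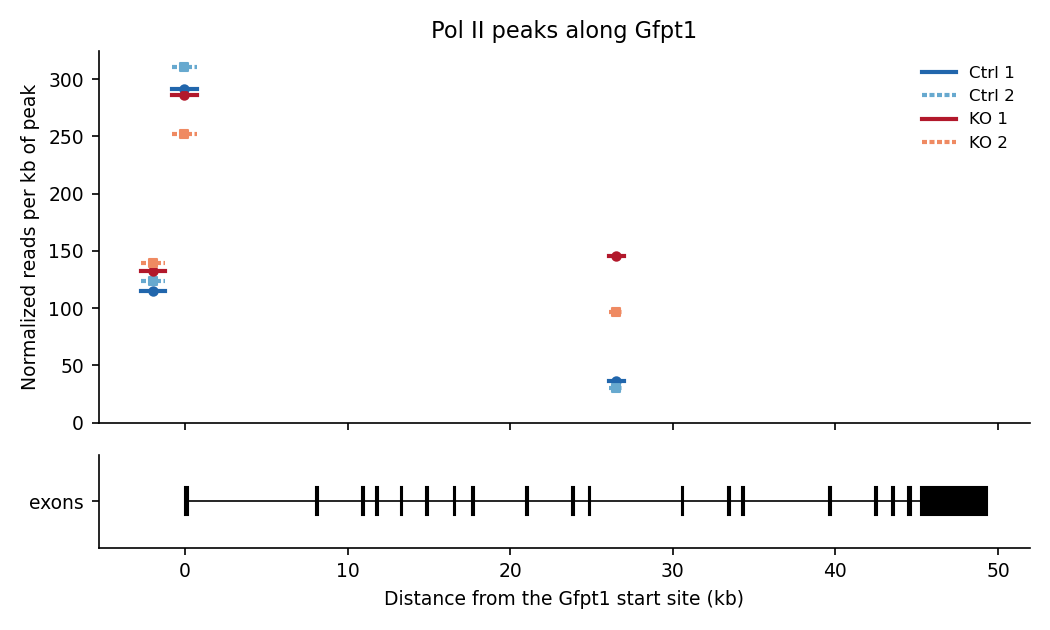
Pol II peaks along Gfpt1, by distance from the gene's start in kb (horizontal axis) and normalised counts per kb of peak in each of the 2 Ctrl and 2 KO libraries (vertical axis). The libraries part at the intronic peak, 26.5 kb into the gene, where the Ctrl mean was 33.4 and the KO mean 120.9 per kb, whereas at the promoter peak the means were 301.2 and 269.3 per kb.

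Per kb of peak, the intronic signal in Ctrl was 33.4 normalised counts, at the 0.243 percentile of the 19766 intronic peaks far from a start, whose median was 107 per kb. In KO it reached 120.9 per kb, at the 62.9 percentile of the same peaks ordered by their KO level. The intronic peak thus had one of the lowest Ctrl levels in the list and a middling KO level. The list merges peaks over libraries and does not tell in which of them a peak was called, and a peak listed through its KO signal alone would be low in Ctrl by that choice, so these percentiles are a description only. The promoter peak stood at 301.2 per kb in Ctrl, the 93.6 percentile of 25600 peaks near a start.

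The share of a gene's own reads that fall in 1 of its peaks does not depend on library depth or size factors. The intronic peak held 5.12% of the 918 Gfpt1 reads of Ctrl 1 (Wilson 95% interval 3.87 to 6.74%) and 3.95% of the 506 of Ctrl 2 (2.57 to 6.03%). In KO 1 it held 17.2% of 1309 reads (15.2 to 19.3%) and in KO 2 12.8% of 405 (9.93 to 16.5%). The KO intervals lay above the Ctrl intervals, and these intervals cover counting error only. The mean share among Ctrl libraries was 4.54 ± 0.83% (SD, n = 2) and among KO libraries 15 ± 3.11% (SD, n = 2), 3.31 times as high. Set against the promoter peak alone, the intronic peak held 0.074 and 0.0567 reads per promoter read in Ctrl and 0.298 and 0.224 in KO, 3.99 times as many on average. The upstream peak held 0.372 and 0.377 reads per promoter read in Ctrl and 0.438 and 0.522 in KO, 1.28 times as many.

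**Figure D2:**
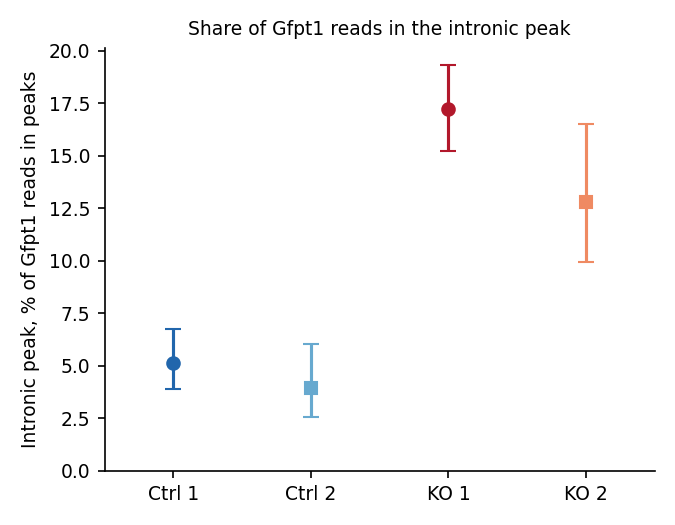
Percent of each library's Gfpt1 reads that fell in the intronic peak (vertical axis) in the 2 Ctrl and 2 KO libraries, with Wilson 95% intervals as bars. The Ctrl libraries stood at 5.12% and 3.95% and the KO libraries at 17.2% and 12.8%, with no overlap of the intervals between the genotypes. The intervals cover counting error only, and the peak was chosen for its gain in KO, so the gap is a description.

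Summed over its 3 peaks, Gfpt1 held 644.8 and 703.8 normalised counts in the Ctrl pair and 773.0 and 701.1 in the KO pair. The log2 fold change was 0.13 ± 0.16. The groups overlapped. With the intronic peak left out, the sum was 611.8 and 676.0 in the Ctrl pair and 640.1 and 611.1 in the KO pair. The log2 fold change was -0.04 ± 0.17. The higher KO mean of the gene sum thus came from the intronic peak.

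The stretch around Gfpt1 was also searched. Within 100 kb of the intronic peak on either side lay 17 other peaks, the 2 other Gfpt1 peaks among them. Their log2 fold changes ran from -0.71 to 0.78, and 0 passed an unadjusted p-value under 0.05 by DESeq2 or edgeR, against 1.53% and 3.63% of all peaks. In 4 of them both KO libraries were above both Ctrl libraries, where all peaks gave 16.2%, in 4 below, where all peaks gave 16.1%, and in 9 the groups overlapped. The nearest peaks outside the gene rule lay between genes. The one 31.2 kb before the intronic peak held 128.7, 115.7, 149.7 and 168.6 normalised counts in Ctrl 1, Ctrl 2, KO 1 and KO 2, and the one 30.9 kb after it 13.7, 33.1, 14.3 and 13.6. The nearest genes with a peak were Nfu1, an iron-sulfur cluster scaffold, whose closest peak had a log2 fold change of 0.16 ± 0.30, and Antxr1, an anthrax toxin receptor, at 0.23 ± 0.36. No other peak of this stretch had a log2 fold change as large as that of the intronic one.

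Gnpnat1 encodes the acetyltransferase that makes N-acetylglucosamine 6-phosphate, the step after Gfpt1. It lies on the minus strand of chr14:45376334-45404913, and its 2 peaks also lie in an intron of Styx, so their reads cannot be assigned to 1 of the genes. The peak at a Gnpnat1 start, chr14:45388481-45389520, held 222.1 and 209.4 normalised counts in Ctrl and 224.6 and 247.0 in KO. The KO values were higher, that of KO 1 by little, with a log2 fold change of 0.12 ± 0.26. The intronic peak, chr14:45387323-45388136, held 115.0 and 73.0 in the Ctrl pair and 98.0 and 68.1 in the KO pair and overlapped between the groups. The sum of the pair of peaks was 329.4 and 285.2 for Ctrl against 320.6 and 320.3 for KO, at 0.06 ± 0.21, also with overlap.

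Pgm3 encodes the mutase that moves the phosphate to position 1 of N-acetylglucosamine. It lies on the minus strand of chr9:86554377-86571842, and both of its peaks are shared with Rwdd2a. The promoter peak, chr9:86571449-86572368, held 289.0 and 257.7 normalised counts in the Ctrl pair and 293.5 and 306.6 in the KO pair. The log2 fold change was 0.13 ± 0.24. The exonic peak, chr9:86570152-86570388, was small, with 22 and 10 reads in Ctrl and 33 and 24 in KO, or 15.8, 13.8, 19.6 and 40.9 normalised counts. At each peak both KO libraries were above both Ctrl libraries, and the exonic log2 fold change of 0.98 ± 0.70 rested mainly on KO 2, the shallowest library. The sum was 297.8 and 274.0 in the Ctrl pair and 311.2 and 353.1 in the KO pair, at 0.21 ± 0.21 and without overlap.

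Uap1 encodes the pyrophosphorylase that completes UDP-GlcNAc. It lies on the minus strand of chr1:170141938-170174957 and had 4 peaks, which the midpoint rule gave to no other protein-coding gene. The promoter peak, chr1:170173979-170175593, was the best filled of all 13 per kb in Ctrl, at 366.0 normalised counts. It held 613.1 and 569.0 normalised counts in Ctrl and 546.0 and 575.7 in KO, at a log2 fold change of -0.08 ± 0.20, and the groups overlapped. The 3 peaks inside the gene were smaller, with centres 6.9, 12.8 and 14.2 kb from the start. Those at 12.8 and 14.2 kb were centred 210 and 1175 bases from an annotated internal Uap1 start. The one at 6.9 kb held 49.3 to 57.9 normalised counts in all 4 libraries. The one at 12.8 kb, which also overlaps an exon, held 48.2 in Ctrl 1 and 13.1 to 18.7 in the other libraries, so its log2 fold change of -1.06 ± 0.72 came from 1 Ctrl library. The one at 14.2 kb held 51.0 and 48.2 in the Ctrl pair and 36.2 and 22.1 in the KO pair, at -0.72 ± 0.52. The Uap1 sum was 745.2 and 688.5 in the Ctrl pair and 640.7 and 685.5 in the KO pair, both KO libraries lower, at -0.12 ± 0.16.

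Ogt encodes the transferase that puts O-GlcNAc on proteins and so uses the product of the pathway. It lies on the plus strand of chrX:101640060-101684351, and the share of male and female cells in each library is not given. Its promoter peak, chrX:101639714-101640399, held 157.4 and 136.4 normalised counts in Ctrl and 161.0 and 148.2 in KO, with overlap and a log2 fold change of 0.07 ± 0.29. Its intronic peak, chrX:101640907-101641235, held 49.6 in both Ctrl libraries and 48.1 and 49.4 in KO, the most even of the 13. The sum, 202.3 and 187.8 in Ctrl and 207.9 and 200.8 in KO, differed by 0.07 ± 0.25 on the log2 scale, and the groups overlapped.

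**Figure D3:**
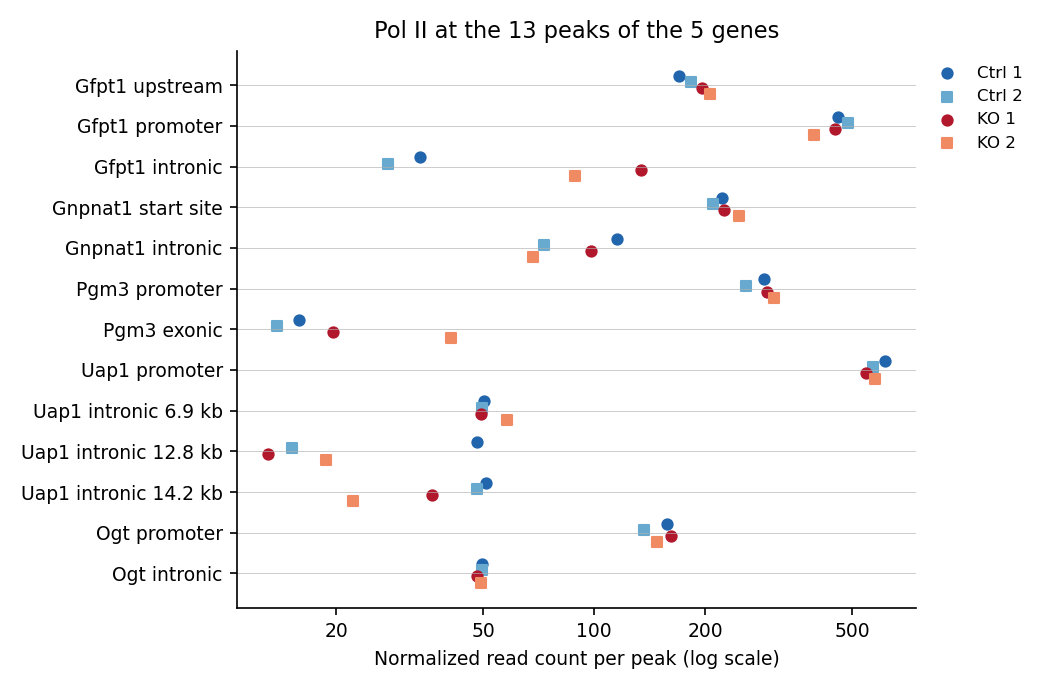
Normalised counts (horizontal log axis) of the 13 peaks of the 5 genes in each Ctrl and KO library, 1 point a library. The intronic Gfpt1 peak is where the groups lie farthest apart, from 27.6 to 33.8 in Ctrl and from 88.6 to 133.7 in KO.

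Across the 13 peaks, DESeq2 called 0 after adjustment over all peaks, as for the whole series at 0.0%, and 1 at an unadjusted p-value under 0.05, the intronic Gfpt1 peak that chose the genes, against 1.53% of all peaks. edgeR called that same peak after adjustment, and 0.0477% of all peaks. Both KO libraries were above both Ctrl libraries in 5 of the 13, where all peaks gave 16.2%, and below in 3, where all peaks gave 16.1%. Since the same contrast chose the genes, nothing is read from these counts. Without the intronic peak, 4 of 12 were above, 3 below and 5 overlapped, 0 passed an unadjusted p-value under 0.05 by DESeq2 or edgeR, and the median log2 fold change was 0.02, beside -0.01 over all peaks. The 5 peaks within 100 bases of a start had log2 fold changes from -0.15 to 0.13. The starts of the pathway genes thus differed little between the genotypes in these libraries, with standard errors of 0.20 to 0.30.

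Over the 5 gene sums, 0 passed after adjustment by DESeq2 or edgeR, where all genes gave 0.096% and 0.0%, and 0 at an unadjusted DESeq2 p-value under 0.05, where all genes gave 2.81%. Both KO libraries were above both Ctrl libraries for Pgm3 alone, where all genes gave 17.3%, and below for Uap1 alone, where all genes gave 16.9%. The median log2 fold change of the 5 sums was 0.07, with -0.01 over all genes. With peaks of the gene body only, the Gfpt1 sum was the intronic peak alone and passed (adjusted DESeq2 p-value 0.023), a value from the contrast that chose the peak. The full sums mix peaks of the start and of the gene body, which at Gfpt1 had unlike values.

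**Figure D4:**
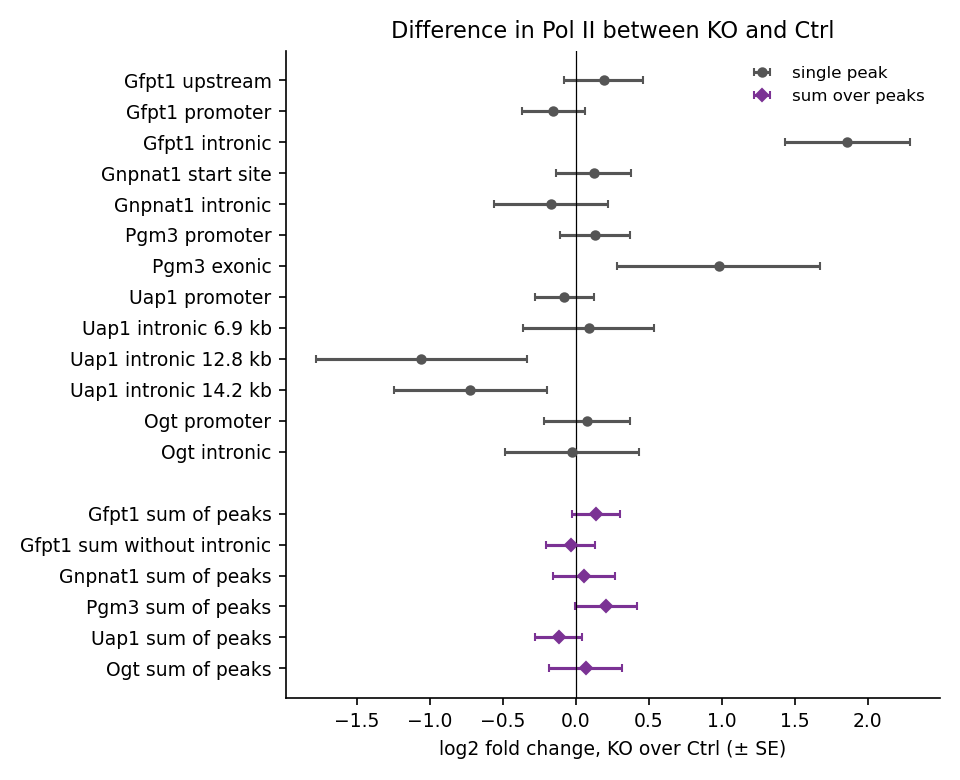
Log2 fold change, KO over Ctrl, with its DESeq2 standard error as a bar, for the 13 peaks and the 5 gene sums. The intronic Gfpt1 peak stands at 1.86, and the other 12 peaks lie between -1.06 and 0.98, those with the widest bars being the smallest peaks.

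The Ctrl levels at the starts of the 5 genes were compared. Per kb of peak, the Ctrl level at the start was highest for Uap1, at 366.0 normalised counts, then Gfpt1 at 301.2, Pgm3 at 297.1, Ogt at 214.1 and Gnpnat1 at 207.5. Both Ctrl libraries put Uap1 above the rest, whereas the Ctrl values of Gfpt1 and Pgm3 overlapped, and so did those of Ogt and Gnpnat1. All 5 lay between the 81.5 and 96.7 percentiles of the 25600 peaks within 3 kb of a start. That set also holds flanking peaks, such as the upstream Gfpt1 peak at the 45.9 percentile, so it does not rank them among start peaks alone. The peaks of Pgm3 and Gnpnat1 are shared with Rwdd2a and Styx, so their levels may not belong to these genes alone. The RefSeq promoter windows of Gfpt1, Pgm3 and Uap1 were alike in composition, with 70.3, 70.3 and 69.0% G and C and 4 to 6 GC boxes. The 2 Ogt windows had 51.0 and 48.3% and 1 GC box each, near the median promoter. Only the Pgm3 window held the ETS letters CCGGAAG, at 2 places, a motif found in 8.86% of all promoters. No window of these 4 genes held the E-box CACGTG, which 7.15% of promoters hold.

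Genes around the pathway were counted from 3 lists, and 38 of their 41 genes had a peak. By DESeq2, 0 of the 38 passed after adjustment and 0 at an unadjusted p-value under 0.05, where all genes gave 0.096% and 2.81%. By edgeR 0 passed after adjustment and 2 without it, where all genes gave 0.0% and 4.77%. Both KO libraries were above both Ctrl libraries in 11 and below in 7, beside 17.3% and 16.9% of all genes, and the median log2 fold change was 0.04.

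Of the 9 genes that regulate, salvage or turn over hexosamines, all had a peak, 2 were higher in both KO libraries (17.3% of all genes), 0 lower (16.9% of all genes), and the median was 0.04. The highest were Gnpda2, a glucosamine 6-phosphate deaminase, at 0.24 ± 0.36, and its relative Gnpda1 at 0.23 ± 0.22. The lowest were Renbp, which binds renin and epimerises N-acetylglucosamine, at -0.22 ± 0.70, and the kinase Nagk at -0.04 ± 0.20. Gfpt2, the other gene for the entry enzyme, held 88.5 and 140.5 normalised counts in Ctrl and 106.3 and 126.4 in KO. Mgea5, which encodes the enzyme that removes O-GlcNAc and so opposes Ogt, held 1401 and 1365 in the Ctrl pair and 1658 and 1478 in the KO pair, at 0.18 ± 0.14. Both genes were looked up by name, after their values were known.

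Of the 22 genes that use UDP-GlcNAc or its products, 19 had a peak and Alg13, Gcnt1 and Gcnt2 had none. Both KO libraries were above in 5 and below in 5 of the 19, beside 17.3% and 16.9% of all genes, with a median of -0.01. The highest were Rfng, a glycosyltransferase of Notch receptors, at 0.86 ± 0.60 from 1 small peak shared with another gene, and Gne, the entry enzyme of sialic acid synthesis, at 0.25 ± 0.17. The lowest were Piga, which starts GPI anchors, at -0.40 ± 0.31, and Ext1, a heparan sulfate polymerase, at -0.24 ± 0.13.

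The 10 genes that supply fructose 6-phosphate and glutamine all had a peak. Both KO libraries were above in 4 and below in 2 of the 10, beside 17.3% and 16.9% of all genes, with a median of 0.10. The highest were Gpi1, which makes fructose 6-phosphate, at 0.38 ± 0.22, and the hexokinase Hk2 at 0.25 ± 0.26. The lowest were the glutamine carrier Slc38a1 at -0.13 ± 0.13 and the glucose carrier Slc2a1 at -0.10 ± 0.12. No gene of the 3 lists passed the DESeq2 test in either direction.

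**Figure D5:**
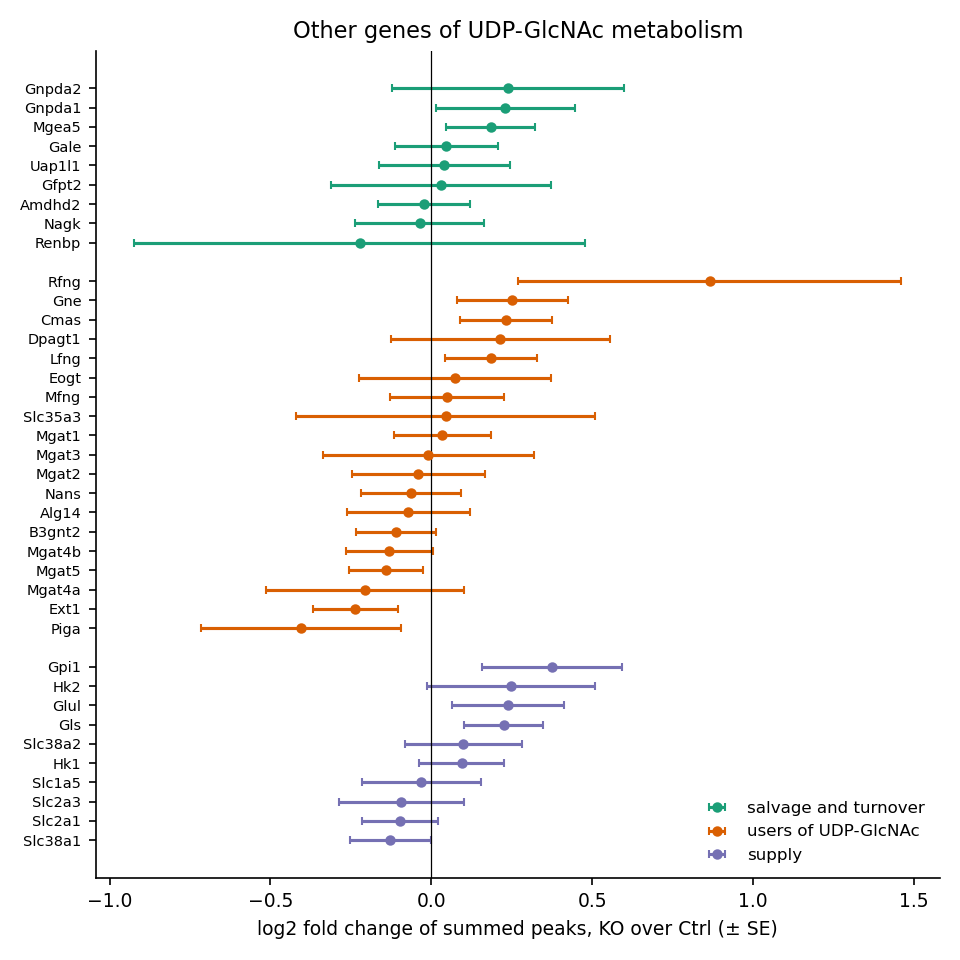
Log2 fold change, KO over Ctrl, with DESeq2 standard error as a bar, of the 38 related genes with a peak, by list. The medians of the lists were 0.04, -0.01 and 0.10, and the values ran from -0.40 for Piga to 0.86 for Rfng.

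The peaks whose pattern over the 4 libraries was most like that of the intronic Gfpt1 peak were sought among 55402 peaks with a mean of at least 20 normalised counts, by Euclidean distance of log2(normalised count + 1) centred on each peak's mean. The nearest, at a distance of 0.43, lay in an intron of Acly, the ATP citrate lyase that makes acetyl-CoA, at chr11:100522263-100522674. It held 16.5, 15.2, 49.9 and 39.2 normalised counts in Ctrl 1, Ctrl 2, KO 1 and KO 2. Then came an intronic peak of Polr2m at 0.54, a peak between genes on chr2 at 0.57, an intronic peak of Fancc at 0.59 and an exonic peak of Chn2 at 0.60. All 5 were low in both Ctrl libraries, and their log2 fold changes ran from 1.29 to 1.5. All were below that of the Gfpt1 peak, and with 4 libraries such likeness describes these libraries only.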

How the data were processed

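Pol II CUT&Tag was analysed in 2 Ctrl and 2 KO libraries. The IgG library was not analysed here. The authors trimmed and aligned the 150-base read pairs, removed duplicates, called peaks with MACS2 at a p-value of 0.01 against IgG, merged them and deposited raw read counts per merged peak. Per the submitters' processing notes Bowtie2, FastQC and bedtools were used. Versions are not given in the sources used here. All deposited columns carried a sample (0 without). Peak coordinates lay within GRCm38 and are given 1-based.

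Using GENCODE release M21, a peak went to each protein-coding gene with its midpoint in the body or the 3 kb before the start, or failing that to other gene types, and counts were summed by gene. DESeq2 1.42.0 (R 4.3.3, Wald test, Benjamini-Hochberg over all peaks or genes) was the main test, as in the study, and edgeR 4.0.16 an alternative. DESeq2 on single peaks was tested on simulated data, whereas edgeR and the gene sums were not. The pathway genes and lists were chosen with earlier results of these data known. Of each list, the 2 highest and 2 lowest log2 fold changes are named, with the 3 peaks next in p-value (not all are reported here), the 5 peaks of most similar pattern and the nearest genes. Other scalings, a filter at a mean count of 10, a replicate block and leaving out each library were tried. Depth, 4489646 to 13351007 counts in peaks, limits precision most in KO 2.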

Additional observations from a re-analysis of the deposited data

How the results depend on the processing

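The intronic Gfpt1 peak kept its direction in all alternatives, with log2 fold changes from 1.85 to 1.89 when tool, scaling, filter or replicate block changed and from 1.52 (without KO 1) to 2.12 when 1 library was left out. Fits that leave 1 library in a group assume that it varies like the others. The number of peaks called was 0 by DESeq2 (864 at an unadjusted p-value under 0.05), 27 by edgeR (2057 unadjusted), and 0 to 5 with 1 library left out. The number of genes called was 13 by DESeq2, 0 by edgeR (646 unadjusted), 8 with peaks of the gene body only, 7 without shared peaks and 0 to 3 with 1 library left out. With the replicate block, 25 peaks and 119 genes were called. Same-numbered libraries share only a number (their deviations correlated at 0.233), the block moved the log2 fold changes of the 5 genes little, and the intronic Gfpt1 peak stood at 1.85.

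With peaks of the gene body only, the Gfpt1 sum was the intronic peak alone, at 1.87, and was 1 of the 8 genes called over 11490 (adjusted DESeq2 p-value 0.023), the Pgm3 sum its exonic peak, at 0.99, and the Ogt sum its intronic peak, at -0.021. With peaks within 3 kb of a start only, the Gfpt1 sum was -0.032. Leaving out 1 library gave 0.06 to 0.20 for Gfpt1, -0.11 to 0.03 for Gfpt1 without its intronic peak, -0.04 to 0.17 for Gnpnat1, 0.12 to 0.30 for Pgm3, -0.17 to -0.06 for Uap1 and 0.016 to 0.125 for Ogt. The sign changed without Ctrl 2 for Gnpnat1 and for Gfpt1 without its intronic peak, and the cause was not tested. Gnpnat1 and Pgm3 have no value without shared peaks, nor has Gfpt1 without its intronic peak in the gene body.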
